A study of Mus musculus with 6 samples.

Results

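The genes described here encode subunits of respiratory complex I, read out as messenger RNA in mouse lung endothelial cells (MLECs) by bulk RNA sequencing of poly(A)-selected RNA. Rows of the deposited table were taken when the symbol was Nduf followed by a, b, c, s or v and a number, or began with mt-Nd, and when the mean over the 6 libraries was at least 10 normalized counts. The clone-named row RP23-357P12.1 was added because its values are high where those of Ndufs5 are low. This gave 43 members of 53735 rows, namely 37 nuclear-encoded genes, 5 mitochondrially encoded genes and the clone-named row. Of 45 matching rows, 2 lay under the mean, mt-Nd3 at 0.152 and mt-Nd4l at 0. The lowest means among the members were 168 for Ndufs5, 220.0 for Ndufb4 and 392 for mt-Nd6.

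The compared groups were 4 libraries labelled knockout (KO) and 2 labelled wild type (WT) for Zmpste24, the zinc metalloprotease that processes prelamin A. Cells of both groups were sorted with CD31 and ICAM2 beads and kept as confluent primary cultures that were neither passaged nor treated. Mice came from 2 cohorts, and the labels do not say which library belongs to which cohort, nor the strain background, the age, the deleted part of the gene or whether each library is a separate animal. Any p-value therefore reflects library-to-library spread, part of which may be technical.

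Complex I, NADH:ubiquinone oxidoreductase, is the first enzyme of the mitochondrial respiratory chain. Its N module oxidises NADH, its Q module passes the electrons to ubiquinone, and its membrane arm pumps protons. The core subunits are conserved from bacteria and are encoded partly in the nucleus and partly in mitochondrial DNA, while the accessory subunits, all nuclear-encoded, surround them. Ndufs5 encodes an accessory subunit of the proximal membrane arm on the side of the intermembrane space.

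Values are read counts that the authors divided by 1 size factor per library. The libraries held 36844042 to 45613685 reads in KO and 32699024 and 40582588 in WT, of which the mitochondrially encoded members took 0.382% to 0.603% and the nuclear-encoded members 0.178% to 0.196%. KO1 and WT1 stood apart from the other 4 libraries. Across genes, which are not independent replicates, libraries correlated at r = 0.978 to 0.990 within these sets of 2 and 4 and at 0.908 to 0.935 between them. The sets were defined from the data, are not groups of the study, and each hold both genotypes. Differences are therefore also given from a second limma fit that takes set membership into account, named the set-adjusted fit. The 9 macrophage and leukocyte markers summed to 1408 normalized counts in KO1 and 27467 to 44581 in KO2 to KO4, against 1659 in WT1 and 29696 in WT2. The 8 endothelial markers were all detected and summed to 29337 to 82706 in KO and to 142312 and 42991 in WT1 and WT2. The 6 smooth muscle and pericyte markers summed to 215560 in KO1 and 66773 to 125944 in KO2 to KO4, against 235834 in WT1 and 74288 in WT2. The 6 fibroblast markers summed to 401577 to 463287 in KO and to 411145 and 470819 in WT1 and WT2, although the series design text describes the cultures as almost entirely endothelial. Mesothelial markers (4) summed to 8440 to 60852 in KO and to 26117 and 16591 in WT1 and WT2. Of the 6 lung epithelial markers, which summed to at most 445, Nkx2-1 was at 0 in KO1 and WT1 and Sftpc at 0 in KO1. The part of cell composition in the results below was not tested. In such bulk samples, fewer cells of a type and less RNA per cell cannot be told apart.

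Zmpste24 itself (chr4:121059237-121098241, minus strand, GRCm38) had 4041 ± 696 normalized counts in KO (SD, n = 4) and 4826 ± 959 in WT (SD, n = 2), and the KO minus WT difference was −0.26 ± 0.20 (log2, SE; limma adjusted p = 1.00). Because the labels leave the deleted part unnamed, this count is no check of them.

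Ndufs5 (ENSMUSG00000028648.13, chr4:123712710-123718202, minus strand) was nearly absent from the KO libraries, while the clone-named row RP23-357P12.1 was abundant there and nearly absent from WT. Both patterns are part of how these rows were chosen, so their values are a description without a test. Ndufs5 had 1.03, 5.47, 4.29 and 5.05 normalized counts in KO1 to KO4, against 507 and 484 in WT1 and WT2. Behind these values stand 1, 6, 5 and 5 reads in KO1 to KO4 and 484 and 420 reads in WT1 and WT2. The groups did not overlap, and the lowest WT library lay far above the highest KO library. The mean was 3.96 ± 2.02 in KO (SD, n = 4) and 495 ± 16.1 in WT (SD, n = 2). The pooled level was 123-fold higher in WT (exact 95% interval 76.6 to 213, counting error only). On the scale of log2(normalized count + 1), which understates changes of low values, the KO minus WT difference was −6.78 ± 0.56 (SE), and −7.00 ± 0.42 in the set-adjusted fit. It was −7.97 in KO1 against WT1, and −6.23, −6.52 and −6.33 in KO2, KO3 and KO4 against WT2.

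RP23-357P12.1 had 668, 629.6, 622 and 744 normalized counts in KO1 to KO4, against 15.7 and 11.5 in WT1 and WT2. These were 650, 690, 726 and 737 reads in KO1 to KO4, against 15 and 10 in WT1 and WT2. The mean was 666 ± 55.6 in KO (SD, n = 4) and 13.6 ± 2.96 in WT (SD, n = 2), again with no overlap. The pooled KO over WT ratio was 48.4 (exact 95% interval 32.7 to 74.9, counting error only). The log2 difference was 5.52 ± 0.21 (SE), and 5.57 ± 0.17 in the set-adjusted fit. The position and the sequence of this row were not analysed here.

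Together, both rows held 669, 635, 627 and 749 normalized counts in KO1 to KO4, against 522 and 495 in WT1 and WT2. All 4 KO sums lay above both WT sums. The mean sum was 670 ± 55.7 in KO (SD, n = 4) and 509 ± 19.1 in WT (SD, n = 2), with a log2 difference of 0.39 ± 0.14 (SE). The sum is made of values that chose the rows, so it too is a description without a test. Against the WT library of the same set it was 0.36, 0.36, 0.34 and 0.60 in KO1 to KO4. Ndufs5 held 0.154% of the reads of both rows in KO1 (exact Clopper-Pearson 95% interval 0.00389% to 0.853%), 0.862% in KO2 (0.317% to 1.87%), 0.684% in KO3 (0.222% to 1.59%) and 0.674% in KO4 (0.219% to 1.57%). In WT1 it held 97.0% (95.1% to 98.3%) and in WT2 97.7% (95.8% to 98.9%). The plot of both rows shows these values by library. Set beside the median of 34 other nuclear-encoded subunits, the sum came to 32.7%, 38.2%, 38.2% and 41.7% of that median in KO1 to KO4 and to 24.7% and 29.2% in WT1 and WT2.

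**Figure D1:**
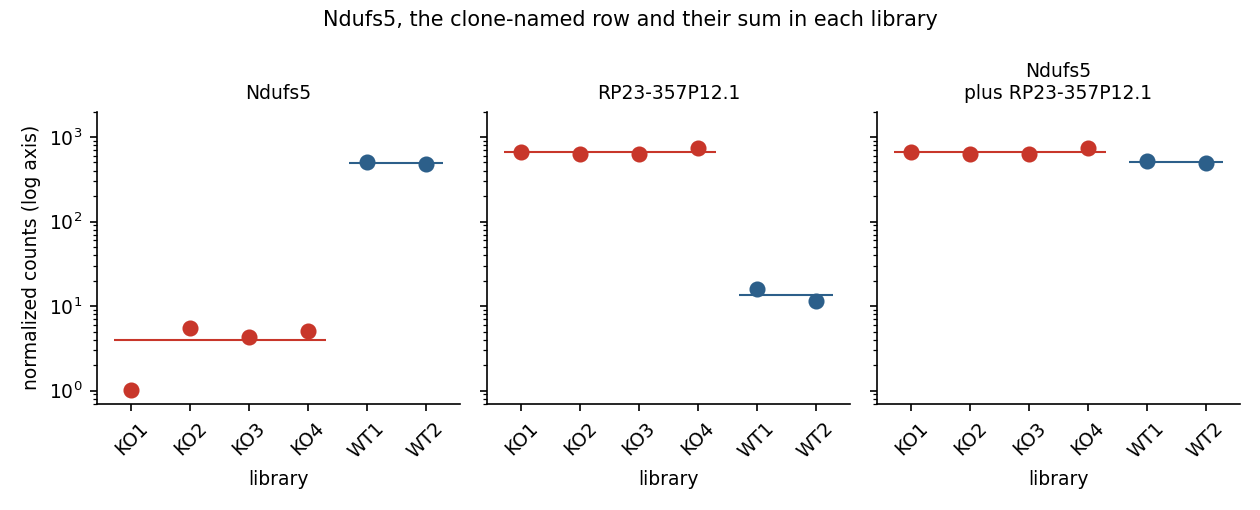
Normalized counts (log axis) of Ndufs5, of RP23-357P12.1 and of their sum in each library, KO in red and WT in blue; points are single libraries and horizontal lines group means. Ndufs5 lies at 1.03 to 5.47 in KO and at 507 and 484 in WT, RP23-357P12.1 at 622 to 744 in KO and at 15.7 and 11.5 in WT, and the sums at 627 to 749 in KO and 522 and 495 in WT.

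The mouse annotation holds a near-identical copy of Ndufs5, the processed pseudogene BC002163 (chr16:42955631-42955949, plus strand, GENCODE M21; RefSeq calls it Ndufs5-ps). The copy spans the 319 nt that match the Ndufs5 transcript of 525 nt, at 99.4% identity. It differs at 2 bases, T81C and A105G, counted from the A of the Ndufs5 start codon with the Ndufs5 base first, and both leave the amino acid as it is. Of the 220 windows of 100 nt, the length of the reads, that fit into the matching stretch, 115 are identical in both genes and 105 hold a difference. A read from an identical window could be given to either gene, so counts of Ndufs5 and of such a copy are uncertain, depending on how such reads were treated. No row of the deposited table bears the name BC002163, and whether RP23-357P12.1 is that locus was not tested. The stretches around both substitutions, positions 51 to 111 from the start codon in GENCODE M21 transcripts, are shown with the differing bases in capitals, since they are what tells the genes apart.
Ndufs5: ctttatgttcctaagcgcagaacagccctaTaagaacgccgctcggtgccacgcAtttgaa
BC002163: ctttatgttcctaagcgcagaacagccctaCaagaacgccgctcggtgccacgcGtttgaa

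Ndufs5 lies 2.61 Mb from Zmpste24 on chromosome 4. Among the members taken by symbol, the other on that chromosome is Ndufb6, an accessory subunit of the distal membrane arm, 80.8 Mb away. It had 1969, 1598, 1636 and 1860.2 normalized counts in KO1 to KO4, against 1998 and 1694 in WT1 and WT2. Its groups overlapped, and the difference was −0.06 ± 0.14 (log2, SE; limma adjusted p = 1.00). The 42 members taken by symbol are spread over 16 chromosomes, with mitochondrial DNA counted as 1 of these. Of these members, 5 lie on chromosome 17 and 5 in mitochondrial DNA. Per kilobase of exon (GENCODE M21, which may differ from the annotation used for counting), Ndufs5 stood at 4.60 normalized counts per kb in KO and at 576 in WT. It ranked 37 of 37 among the nuclear-encoded members in KO and 32 of 37 in WT. The other nuclear-encoded members ran between 81.6 for Ndufb2 and 3839 for Ndufa2 in KO, and in WT between 88.5 and 3872 for the same genes.

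None of the other 41 rows passed the test between genotypes. By limma with Benjamini-Hochberg adjustment over 15229 genes at a threshold of 0.05, 0 of the 41 were called higher and 0 lower in KO. Of all tested genes, 0.00657% (1 gene) were called higher and 0% lower. That 1 gene was RP23-357P12.1. Ndufs5, at a mean of 3.96 normalized counts in KO and 495 in WT, was not called lower. Both rows were chosen for their genotype pattern, so neither outcome counts as a test of them. With 4 KO and 2 WT libraries, a missing call does not show that a row is unchanged. At an unadjusted p under 0.05, 0 of the 41 stood, against 0.939% of all genes. edgeR and DESeq2 on the recovered reads also called 0 of the 41, where they called 0.00657% and 0.046% of all genes. Adjusted for the set, limma called 0 of the 41 and 0.00657% of all genes, edgeR 0 and 0.0131%, and DESeq2 0 and 0.328%, and 0 of the 41 had an unadjusted p under 0.05 by any of the 3, against 3.51% (limma), 3.51% (edgeR) and 3.66% (DESeq2) of all genes. The median log2 difference of the 41 was −0.05, with 10 above 0 and 31 below, and −0.01 in the set-adjusted fit, with 18 above and 23 below. The median over all tested genes was 0.00 in both fits.

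How narrow the intervals around these differences were depended on the fit. With genotype alone, 26 of the 41 had a 95% interval that stayed within 0.5 of 0 on the log2 scale, against 25.1% of all tested genes, and the other 15 include all 5 mitochondrially encoded rows. In the set-adjusted fit, whose sets were defined from these data, 39 of the 41 did so, against 50.9% of all tested genes, and the exceptions were Ndufa4l2 and mt-Nd6. The members are more abundant than most genes, with a median of 1815 normalized counts for the nuclear-encoded ones without Ndufs5 and 828 for all tested genes. The groups did not overlap for 1 row with KO above WT, Ndufb9, and for 2 with KO below WT, Ndufa5 and Ndufb8, where 2.36% and 2.32% of all genes, or 4.68% together, showed such patterns. Ndufb9, an accessory subunit of the distal arm, held 1447, 1446, 1443 and 1438 normalized counts in KO1 to KO4, against 1413 and 1433 in WT1 and WT2. Its coefficient of variation of 0.88% was the smallest of the 43 members. KO4 and WT2 rest on 1425 and 1244 reads, so the gap between them is within counting error.

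**Figure D2:**
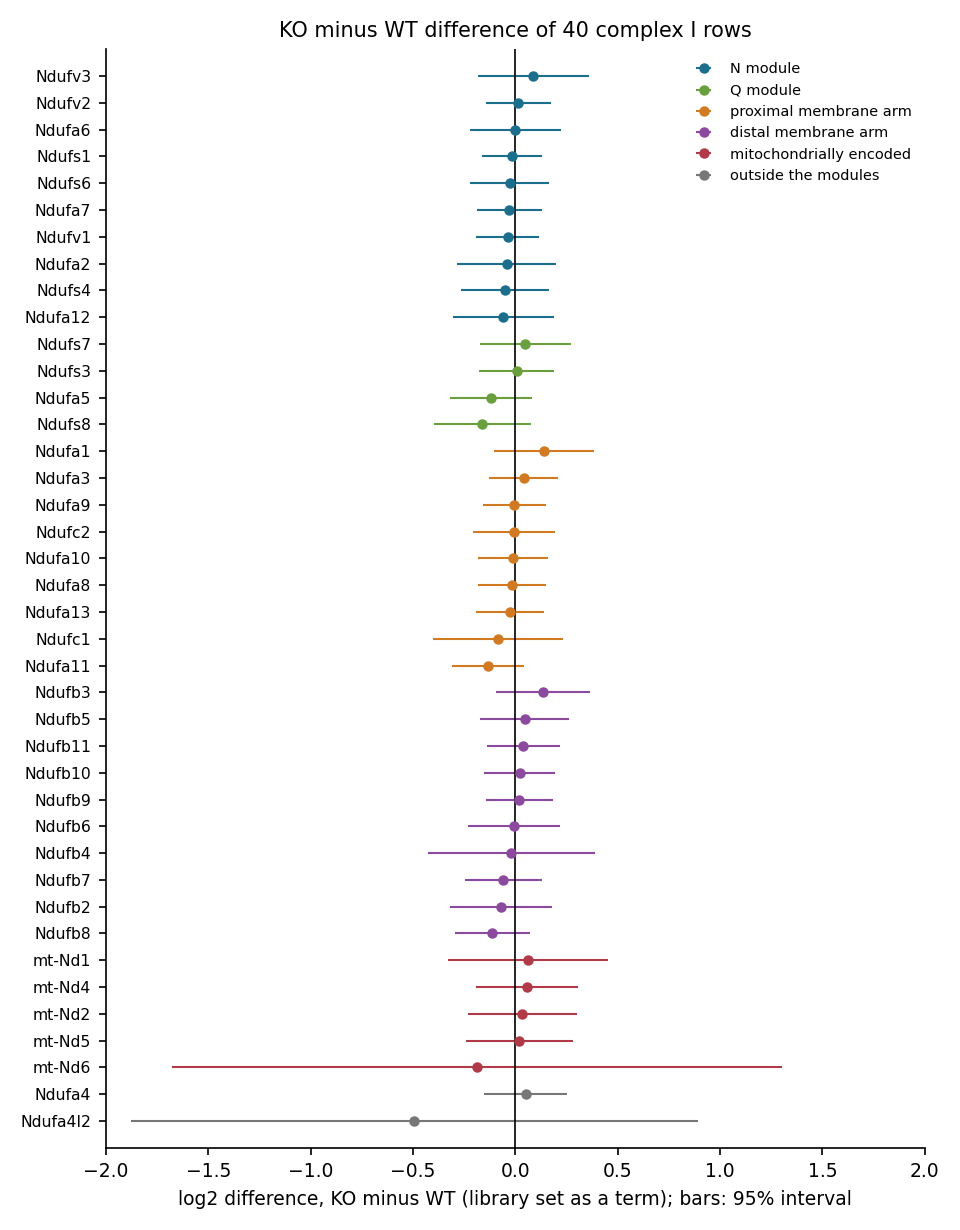
KO minus WT difference on the log2(normalized count + 1) scale for 40 complex I rows in the set-adjusted fit; points are limma estimates over 4 KO and 2 WT libraries, bars their 95% intervals, and colours the module. All intervals include 0, and those of 38 rows stay within 0.5 of it; the wide intervals belong to mt-Nd6 and Ndufa4l2.

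The N module, with 10 measured genes, had a median log2 difference of −0.03 in both fits. Ndufs1, the core subunit that carries most of the iron-sulfur clusters of this module, held 3988, 3661, 3573 and 3619 normalized counts in KO1 to KO4, against 4018 and 3666 in WT1 and WT2. Its groups overlapped, and its difference was −0.05 ± 0.10 (log2, SE). Ndufv1, which binds the flavin and NADH, held 2723, 3178, 3165 and 3274 in KO1 to KO4, against 2898 and 3213 in WT1 and WT2. Its partner Ndufv2, an iron-sulfur subunit, held 2754, 3012, 2946 and 3146 in KO1 to KO4, against 2712 and 3013 in WT1 and WT2. For both, KO1 and WT1 were the lowest libraries, and the differences were 0.01 ± 0.12 and 0.05 ± 0.11 (log2, SE). Ndufv3, an accessory subunit of this tip, held 3608, 3203, 3486 and 3498 in KO1 to KO4, against 2881 and 3562 in WT1 and WT2. WT1 alone was low, and the difference of 0.11 ± 0.12 was the highest among nuclear-encoded rows after Ndufa4l2.

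The Q module, with 5 genes, had a median of −0.05, and 0.01 in the set-adjusted fit. Ndufs7, a core subunit at the ubiquinone site, held 1278, 1298, 1269 and 1139 normalized counts in KO1 to KO4, against 1258 and 1177 in WT1 and WT2, and its groups overlapped. Ndufs8, an iron-sulfur subunit between the N module and the ubiquinone site, held 1445, 1309, 1317 and 1508 in KO1 to KO4, against 1704 and 1484 in WT1 and WT2. WT1 was its highest library and KO4 lay above WT2. Its difference was −0.19 ± 0.12, and −0.16 ± 0.09 in the set-adjusted fit (SE, limma adjusted p = 1.00 in both). Ndufs3, also a core subunit, differed by −0.05 ± 0.13. Ndufa5, an accessory subunit, held 1032, 995, 1045 and 1079 in KO1 to KO4, against 1157 and 1106 in WT1 and WT2, which lay above all 4 KO libraries. Its difference of −0.12 ± 0.11 did not pass (limma adjusted p = 1.00).

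The proximal membrane arm, without Ndufs5, had 9 measured genes, all accessory, at a median of −0.10, and −0.01 in the set-adjusted fit. Ndufa8, a twin-cysteine subunit on the intermembrane side like Ndufs5, held 2985, 1874, 1834 and 1903 normalized counts in KO1 to KO4, against 2886 and 1948 in WT1 and WT2. Ndufa11, a membrane subunit, held 2126, 1642, 1606 and 1531 in KO1 to KO4, against 2415 and 1709.8 in WT1 and WT2. Ndufa1, a single-pass membrane subunit encoded on the X chromosome, held 1461, 1061, 1039 and 911 in KO1 to KO4, against 1382 and 885 in WT1 and WT2. In all 3 genes KO1 and WT1 were high and the other 4 libraries low, in both genotypes alike. Their log2 differences were −0.17 ± 0.27, −0.25 ± 0.20 and −0.01 ± 0.26 with genotype alone. In the set-adjusted fit they were −0.02 ± 0.07, −0.13 ± 0.07 and 0.14 ± 0.10 (SE), and no row had a higher estimate there than Ndufa1. No other subunit of this arm shared the near absence of Ndufs5 from the KO libraries, the lowest KO value among the other 9 being 790.2 normalized counts, for Ndufc1 in KO2.

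The distal membrane arm, with 10 measured genes, had a median of −0.07, and 0.01 in the set-adjusted fit. Ndufb1, also of this arm, had no row under that symbol. Ndufb7, which like Ndufa8 carries twin cysteine motifs, held 2179, 1539, 1391 and 1459 normalized counts in KO1 to KO4, against 2273 and 1521 in WT1 and WT2. Ndufb3 held 1316, 1111, 985 and 970.0 in KO1 to KO4, against 1211 and 922 in WT1 and WT2. KO1 and WT1 were again the highest libraries of both genes, whose differences were −0.20 ± 0.25 and 0.04 ± 0.19, and −0.06 ± 0.07 and 0.14 ± 0.09 in the set-adjusted fit (log2, SE). Ndufb8, another accessory subunit, held 1956, 1863, 1957 and 2028 in KO1 to KO4, against 2211 and 2044 in WT1 and WT2. Its difference was −0.12 ± 0.10 (SE, limma adjusted p = 1.00). Ndufb11, the other X-linked member, held 2468, 2435, 2563 and 2600.1 in KO1 to KO4, against 2269.6 and 2561 in WT1 and WT2, a difference of 0.06 ± 0.10.

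The 5 measured mitochondrially encoded genes, the proton-pumping core of the membrane arm with mt-Nd1 at its junction to the Q module, had a median difference of −0.13, and 0.03 in the set-adjusted fit. mt-Nd1 held 79450.1, 49182, 43892 and 60662 normalized counts in KO1 to KO4, against 78718 and 47527 in WT1 and WT2. mt-Nd2 held 41219, 21506, 20318 and 24575 in KO1 to KO4, against 42198 and 20892 in WT1 and WT2. KO1 and WT1 were close to each other and above the other 4 libraries, which were mixed in genotype. mt-Nd4 followed this order with 46939, 34379, 29709.8 and 33235 in KO1 to KO4, against 47134 and 30215 in WT1 and WT2. mt-Nd5 did so too, with 84026, 62116, 55169.5 and 57732 in KO1 to KO4, against 87274 and 55578 in WT1 and WT2. The differences of these 4 genes were −0.11 ± 0.33, −0.20 ± 0.40, −0.09 ± 0.27 and −0.13 ± 0.28, and 0.02 to 0.06 in the set-adjusted fit (log2, limma adjusted p = 1.00 for each).

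mt-Nd6 is the only one of these genes on the minus strand, and it held 413, 206, 239 and 689 normalized counts in KO1 to KO4, against 273 and 529.98 in WT1 and WT2. It did not follow the order of the others, and its difference of −0.14 ± 0.56 (log2, SE) had a wide error. Its annotation overlaps that of mt-Nd5 between positions 13552 and 13565, and no source used here says whether counting was stranded, so reads near that end may belong to either. In these poly(A)-selected libraries, mt-Nd6 stood at 746 normalized counts per kilobase in KO and 774 in WT. The values for mt-Nd1 were 60916 in KO and 65958 in WT. The part of the poly(A) selection in this gap was not tested. Of the 13 mitochondrially encoded messenger rows in the table, 5 were listed at 0 in all 6 libraries, mt-Nd4l among them, as were mt-Co2, mt-Co3, mt-Atp6 and mt-Atp8. mt-Nd3 held 1 read, in KO2. The cause of these missing counts was not tested, and they are not read as absence of the RNA.

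Among the rows taken by symbol, 2 are not counted as parts of complex I today. Ndufa4, now assigned to complex IV, held 3802, 2758, 2669 and 2840.3 normalized counts in KO1 to KO4, against 3328 and 2842 in WT1 and WT2, with a difference of −0.04 ± 0.18 (log2, SE). Its hypoxia-inducible paralogue Ndufa4l2 had the widest spread of the 41, with 139, 1899.8, 2037 and 1006 in KO1 to KO4, against 479 and 1221 in WT1 and WT2. KO1 and WT1 were the lowest libraries, the reverse of Ndufa4, and the groups overlapped. Its difference was 0.17 ± 1.16, and −0.49 ± 0.55 in the set-adjusted fit (SE, limma adjusted p = 1.00 in both), so that its sign depends on the fit.

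The library sets separated more of the 41 rows than the genotypes did, as was also the case over all genes. Because the sets were defined from these data, this is a description and no test. The counts ran unevenly over the modules. KO1 and WT1 both lay above all 4 other libraries for 23 of the 41 rows, where 30.7% of all tested genes did so, and both below for 3, Ndufa4l2, Ndufv1 and Ndufv2, where 32.7% of all genes did. The 23 rows were made up of 8 of 9 rows of the proximal arm, 7 of 10 of the distal arm, 4 of 5 mitochondrially encoded rows, 1 of 5 of the Q module, 2 of 10 of the N module, and Ndufa4. The median log2 deviation from the mean of each row was, for the proximal arm, 0.25, −0.13, −0.15 and −0.11 in KO1 to KO4 and 0.20 and −0.07 in WT1 and WT2. For the mitochondrially encoded rows it was 0.37, −0.24, −0.41 and −0.13 in KO1 to KO4 and 0.41 and −0.26 in WT1 and WT2. For the N module it stayed between −0.04 and 0.07 in all 6 libraries. The summed markers of each listed cell type moved with the same split. The endothelial sum, at 82706 in KO1 and 142312 in WT1, was at most 47611 in the other 4 libraries. The smooth muscle and mesothelial sums were also higher in KO1 and WT1 than in any other library. As single genes the endothelial markers other than Kdr did so, as did Acta2, Tagln, Myh11, Cnn1, Msln and Upk3b. Pdgfrb was instead lowest in KO1 at 6708, and Des lowest in WT1 at 6601. The mesothelial genes Wt1 and Lrrn4 stood at 1101 and 3478 in library WT1, against 1881 and 4604 in WT2. The macrophage sum was lower in KO1 and WT1. So was the lung epithelial one, at 31.8 in KO1, 27.2 in WT1 and at least 194 in the others. The fibroblast sum was lower too, at 401577 in KO1, 411145 in WT1 and 418124 to 470819 in the others. Within it, Pdgfra stood at 3946 in KO1, 5842 in WT1 and 34290 to 69228 in the others. Col3a1, Dcn and Lum were also lowest in KO1 and WT1, Col1a1 was highest there, and Col1a2 did not follow. The part of cell composition in the split was not tested.

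**Figure D3:**
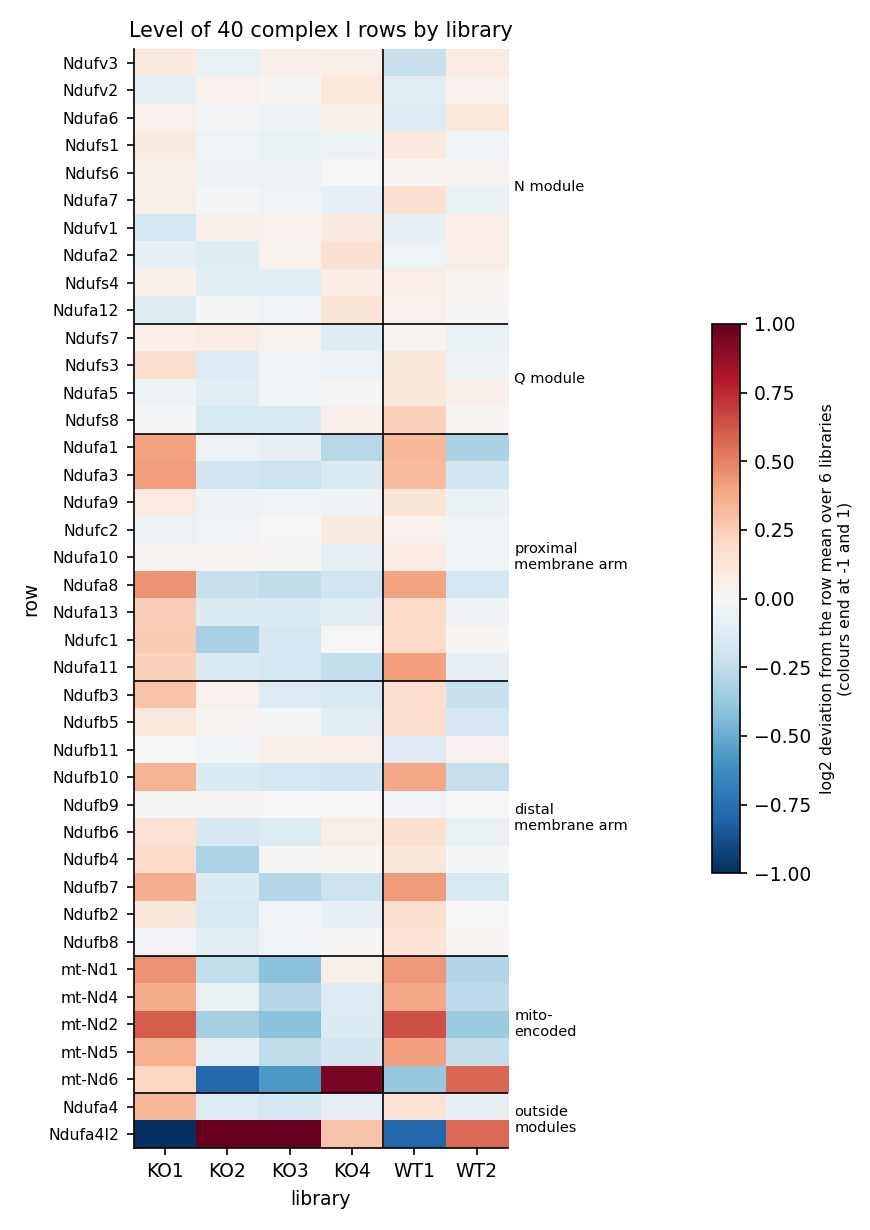
Level of 40 complex I rows (down, by module) in each library (across, KO left of WT), as the log2(normalized count + 1) deviation from the mean of the row over 6 libraries, with colours ending at −1 and 1. Most rows of the membrane arm and 4 of the 5 mitochondrially encoded rows are highest in KO1 and WT1, while the N module stays pale and Ndufa4l2 runs the other way.

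The promoters were inspected for motifs that are known at mitochondrial genes. RefSeq windows of 250 bases before to 50 after the start (GRCm38.p6) were at hand for 32 of the 42 members taken by symbol. A core of the NRF1 motif, GCGCANGCG, or CGCNTGCGC on the other strand, was found in 8 of 32 promoters (25.0%), namely those of Ndufs5, Ndufa5, Ndufa6, Ndufa8, Ndufa11, Ndufb4, Ndufb10 and Ndufs6, and in 14.5% of 10375 tested genes. The YY1 motif AAGATGGC was found in 7 of 32 (21.9%) and in 5.01% of tested genes, and the ETS motif CCGGAAGT in 1 of 32 (3.12%) and in 8.48%, all read on both strands. The NRF1 core is a shortened form, taken after a longer form had been searched and its counts seen. The genes with the NRF1 core include Ndufa8 and Ndufa11, whose values separate the library sets, and Ndufa5 and Ndufs6, whose values do not. A match is a description of letters and not a measured binding site. The windows around the motif, on the strand of the gene, are shown for Ndufs5 (chr4:123718236-123718324, minus strand), Ndufa8 (chr2:36049339-36049407, minus strand) and Ndufa11 (chr17:56717662-56717751, plus strand), with the motif in capitals. The match begins 98 bases before the start of Ndufs5 and 60 before that of Ndufa11, while Ndufa8 holds a pair of matches, the first from 29 bases before its start. In Ndufa11 the matches on both strands overlap and form 1 run of capitals. Ndufs5 is shown for its difference between the genotypes, and Ndufa8 and Ndufa11 are examples of members with the motif whose values separate the library sets.
Ndufs5: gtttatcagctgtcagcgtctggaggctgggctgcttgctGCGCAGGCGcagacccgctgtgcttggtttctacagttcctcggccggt
Ndufa8: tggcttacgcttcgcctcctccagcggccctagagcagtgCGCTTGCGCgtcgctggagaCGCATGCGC
Ndufa11: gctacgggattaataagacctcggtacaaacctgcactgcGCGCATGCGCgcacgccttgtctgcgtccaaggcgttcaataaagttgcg

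Copies of other members in the GENCODE M21 annotation were sought as for Ndufs5, at 97% identity or more over at least 150 nt. Pseudogene copies were found for Ndufa12 (Gm15920, 99.5% over 402 nt), Ndufb4 (Ndufb4c, 100% over 390 nt), Ndufs3 (Gm12251, 98.6% over 792 nt) and mt-Nd4 (Gm28439, 100% over 876 nt). No row of the deposited table bears the name of any of these copies, and the counts of these 4 members are uncertain to that extent. Outside pseudogenes, Ndufb9 matched Gm49356 on the same strand (100% over 202 nt) and Ndufb6 matched Smim27 on the opposite strand (100% over 257 nt). No row bears the name Gm49356 or Smim27 either, so the counts of Ndufb9 and Ndufb6 are uncertain as well. Ndufa12 held 882 ± 65.6 normalized counts in KO (SD, n = 4) and 906 ± 16.3 in WT (SD, n = 2). Ndufb4 held 249, 176, 220.4 and 222 in KO1 to KO4, against 237 and 217 in WT1 and WT2. Ndufs3 held 1543, 1259, 1347 and 1323 in KO1 to KO4, against 1493 and 1328 in WT1 and WT2. None of these 3 was near 0 in either genotype. Tssk6, which overlaps Ndufa13 on the opposite strand over 375 nt, held 9.08 to 22.6 in KO and 19.9 and 18.4 in WT, against 2579.9 or more for Ndufa13 in each library.

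The genes that build complex I and those of the other respiratory complexes were examined from 6 lists with 72 tested genes, chosen with earlier results of these data known. By limma, edgeR and DESeq2 with genotype alone, and by limma in the set-adjusted fit, 0 of the 72 were called in either direction, where these tests called 0.00657%, 0.00657%, 0.046% and, set-adjusted, 0.00657% of all genes. At an unadjusted p under 0.05 stood 0 of the 72 in each of the 4 tests, against 0.939%, 0.998%, 1.43% and, set-adjusted, 3.51% of all genes. Without KO1, 1 of the 72, Ndufaf4, had an unadjusted limma p under 0.05 and was not called. Over all genes tested in that fit, 676 had an unadjusted limma p under 0.05. The 18 tested complex I assembly factors, of 20 listed, had a median log2 difference of 0.00, and −0.01 in the set-adjusted fit. Among them Tmem70, which helps to assemble complexes I and V and had the highest mean, held 1632 ± 189 normalized counts in KO (SD, n = 4) and 1694 ± 68.9 in WT (SD, n = 2). Ndufaf4, the one with the lowest p, held 863 ± 174 in KO and 698 ± 101 in WT, a difference of 0.29 ± 0.24 (log2, SE, limma adjusted p = 1.00).

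The other complexes gave medians of −0.03 (complex II, 4 genes), −0.09 (complex III, 10 genes), −0.08 (complex IV, 11 genes) and −0.05 (complex V, 15 genes), and of 0.01 to 0.02 in the set-adjusted fit. Sdha, the flavoprotein subunit of complex II, held 8911 ± 302 normalized counts in KO (SD, n = 4) and 9112 ± 524 in WT (SD, n = 2), and Sdhd, its membrane anchor, 3665 ± 274 in KO and 3474 ± 267 in WT. mt-Cytb, the cytochrome b gene of complex III, held 100591 ± 15828 in KO and 107652 ± 21745 in WT, and Cyc1, the cytochrome c1 gene, 3274 ± 119 in KO and 3585 ± 13.1 in WT. The 4 differences ran from −0.13 ± 0.09 for Cyc1 to 0.08 ± 0.12 for Sdhd (log2, SE), and were −0.12 ± 0.06 for Cyc1 and 0.12 ± 0.06 for Sdhd in the set-adjusted fit (limma adjusted p = 1.00 for both in both fits). Cyc1 held 3438, 3176, 3198 and 3284 in KO1 to KO4, all below the 3576 and 3595 in WT1 and WT2, a pattern shown by 2.32% of all tested genes. mt-Co1, a catalytic subunit of complex IV, held 243188 ± 18713 in KO and 225919 ± 18667 in WT. Cox6a1, an accessory subunit, held 5142 ± 1643 in KO and 5949 ± 2242 in WT. Atp5b, the catalytic beta subunit of complex V, held 39280.1 ± 4850.2 in KO and 42674 ± 6873 in WT, and Atp5l, a small membrane subunit, 58.2 ± 3.28 in KO and 48.5 ± 7.94 in WT.

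The 14 regulators of mitochondrial biogenesis had a median of 0.07, and 0.01 in the set-adjusted fit. Yy1, a transcription factor whose motif was searched above, held 4126 ± 232 normalized counts in KO (SD, n = 4) and 3996 ± 398 in WT (SD, n = 2). Ppargc1a, the coactivator PGC-1alpha, held 22.6, 67.5, 43.7 and 26.2 in KO1 to KO4, against 16.8 and 25.3 in WT1 and WT2. Its groups overlapped, and its difference of 0.79 ± 0.53 (log2, SE) did not pass (limma adjusted p = 1.00). The split of the libraries ran through these lists as well. KO1 and WT1 lay above all 4 other libraries for 10 of 11 genes of complex IV, 6 of 10 of complex III, 9 of 15 of complex V and 3 of 4 of complex II, against 30.7% of all tested genes. They did so for 2 of 18 assembly factors and 1 of 14 regulators. Both lay below all 4 others for 7 of the assembly factors, 9 of the regulators and 2 genes of complex III, against 32.7% of all tested genes.

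**Figure D4:**
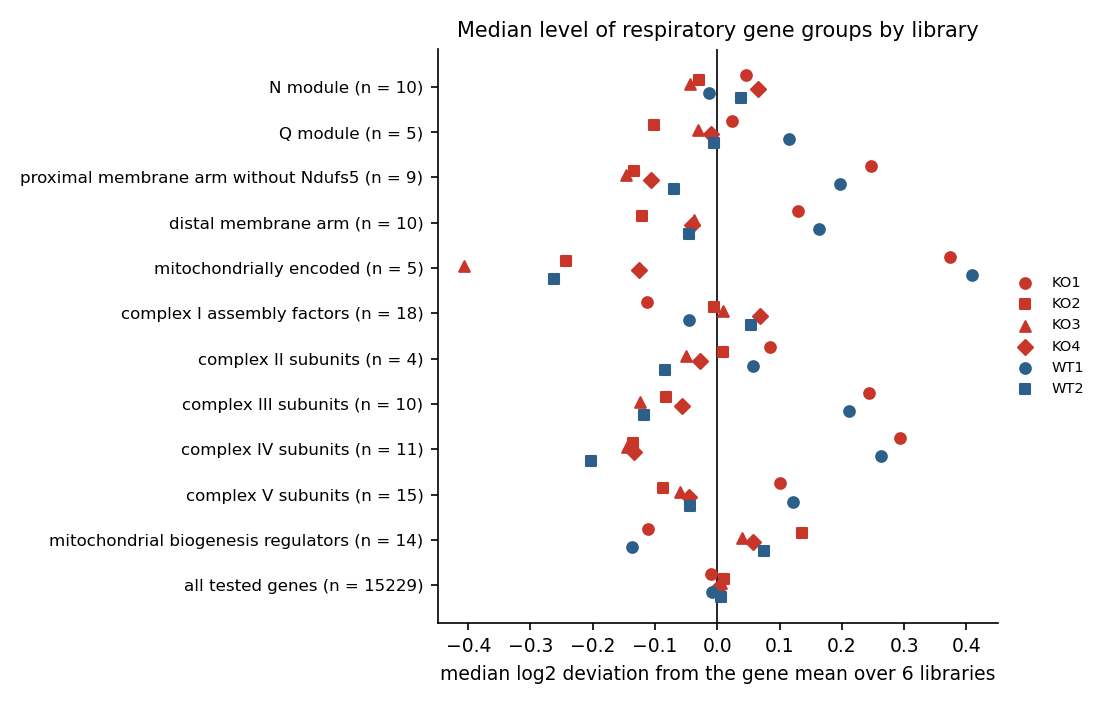
Median log2 deviation from the gene mean over 6 libraries for each module of complex I, for the other lists and for all 15229 tested genes, with KO libraries in red and WT libraries in blue. In the membrane-arm modules, the mitochondrially encoded rows and complexes III to V, KO1 and WT1 lie above 0 and the other 4 libraries below, with the mitochondrially encoded rows at 0.37 in KO1 and 0.41 in WT1 and at −0.41 to −0.13 in KO2 to KO4 and −0.26 in WT2.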

How the data were processed

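The authors deposited 1 table of normalized counts per gene and library. Reads of 100 nt were trimmed (Trimmomatic 0.36), aligned (STAR 2.6.0c) and counted (featureCounts, Subread 1.6.1) on GRCm38.p6, per the submitters' processing notes. The series design text instead names HTSeq and other versions, and says that DESeq2 did the normalization. The deposited signal is a gene's read count divided by 1 size factor per library. All values were whole multiples of 1 step per library (100% within 1e-06), which gave the reads used here.

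Genes with a mean of at least 10 (15229 of 53735) were tested on log2(normalized count + 1) with limma 3.58.1 (R 4.3.3; lmFit, then trended eBayes). Genotype was the sole term, and p-values were two-sided and adjusted by Benjamini-Hochberg at 0.05. The fits were tested on simulated data. Alternatives were other pseudocounts, filters and scalings, no trend, each library left out, a block for the number in the title, set adjustment or the second set alone, and DESeq2 1.42.0 and edgeR 4.0.16 applied to recovered reads. At a mean of 10, counting error alone is about 31.6%.

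The members and lists were chosen with earlier results of these data known. Named were Ndufs5, RP23-357P12.1, core subunits (1 is not reported here and is left out of the figures), Ndufa4, Ndufa4l2, the 3 highest and 3 lowest other differences in both fits, and per further list the gene with the highest mean and that with the lowest p. Other members are named for a role, a copy, a position or a range. Intervals of read shares cover counting error only. No 2 libraries of a genotype agreed within sampling noise (chi-square per gene 28.4 or more).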

Additional observations from a re-analysis of the deposited data

Results flagged for a closer look

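In 3 of 38 results checked in the 4 KO libraries, 1 library lay further from the others than the 95% critical value of Dixon's test, and it was KO1 each time. Chance alone gives about 1 in 20 such results. Ndufa8 stood at 2985 normalized counts in KO1 and at 1834 to 1903 in the other KO libraries, a gap of 0.94 of the range, against 2886 in WT1 and 1948 in WT2. Ndufa4 stood at 3802 in KO1 and at 2669 to 2840.3 in the other KO libraries, a gap of 0.85, against 3328 in WT1 and 2842 in WT2. Cox6a1, a complex IV subunit gene, stood at 7597 in KO1 and at 4125 to 4492 in the other KO libraries, a gap of 0.89, against 7534 in WT1 and 4363 in WT2. In all 3 genes WT1 was high in the same way as KO1.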

How the results depend on the processing

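Over 21 alternatives, 168 of 185 summary values stayed within 1.5 times the count or within 1 SD, and the other 17 moved. Among those that moved, the mitochondrially encoded median changed sign without WT1, as given below. The number of all genes called in the main fit was 1, the row RP23-357P12.1. That number was 2 with a pseudocount of 5, 7 by DESeq2, 2 by set-adjusted edgeR and 50 by set-adjusted DESeq2. It was 0 in the second set alone and 0 to 2 with a library left out (2 without KO1, 0 without KO2, KO3 or KO4). Among the 41 rows without Ndufs5 and RP23-357P12.1, 0 were called under each of the 21 alternatives, with a lowest adjusted p of 0.597, without KO1. The nuclear-encoded median of −0.04 ran from −0.14, without WT2, to 0.012, without WT1. The mitochondrially encoded median of −0.13 ran from −0.45, without WT2, to 0.23, without WT1. It was also above 0 in the set-adjusted fit, at 0.03, and in the second set alone, at 0.08. Its sign therefore depends on single WT libraries and on how the sets are treated. The log2 difference of Ndufs5 was −5.84 with a pseudocount of 5 and −6.95 to −6.39 with a library left out. That of RP23-357P12.1 was 5.18 with a pseudocount of 5, 5.73 in the second set alone and 5.32 to 5.73 with a library left out, and that of their sum 0.34 to 0.43. The cause of these shifts was not tested. With the title number as a replicate block, which pairs KO1 with WT1 and KO2 with WT2 only by number, 0 genes were called, with 781 at an unadjusted p under 0.05, and the medians were −0.01 and 0.03. The block value was −7.10 for Ndufs5, 5.49 for RP23-357P12.1 and 0.36 for their sum. Deviations from the group means correlated at r = 0.84 for KO1 with WT1 and 0.56 for KO2 with WT2, which with only 2 WT libraries mirrors the library sets. Of the genes named with values, 25 changed sign under some alternative, without a call in any, Ndufa1 in 12. Other scalings moved the median of all genes by at most 0.02. The 2 WT libraries limit the precision of each difference.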
